A study of Mus musculus with 6 samples.

Results

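Elastic fibre and microfibril genes were followed in the hearts of β1 integrin knockout and wild-type mouse embryos. The set named 10 genes, chosen by gene symbol alone: elastin (Eln), the fibrillins Fbn1 and Fbn2, the fibulins Fbln1, Fbln2 and Fbln5, emilin 1 (Emilin1), the microfibril-associated genes Mfap2 and Mfap4, and lysyl oxidase (Lox). Of these, 9 had a transcript cluster, the unit that the array reads for a gene, among 19933 genes with 1 annotated symbol. Each of the 9 had 1 cluster. Fbn1 was not analysed here.

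The samples were 3 wild-type hearts (heart_WT) and 3 hearts labelled knockout for β1 integrin (heart_KO), all at stage E12.5, an age in days of embryonic development given for the series as a whole. The alleles, the driver of the deletion, the cells it reached, the strain and whether a sample was a single heart or a pool were not stated by the labels. Below, a heart stands for 1 sample and hearts 1 to 3 of a group are its replicates by label number, described as biological replicates. Each was hybridised to 1 Affymetrix Mouse Gene 1.0 ST array, which reports 28767 transcript clusters as log2 signals. The study asked which transcripts differ before the mutant heart shows obvious dysfunction.

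Elastic fibres have a core of cross-linked elastin laid on a scaffold of microfibrils. Microfibrils are polymers of fibrillin that carry associated glycoproteins such as those encoded by Mfap2 and Mfap4. Fibulins and emilin 1 join elastin to microfibrils and to cells, and lysyl oxidase oxidises lysines of elastin and collagen so that they can be cross-linked. In the embryonic heart these proteins are known from the outflow tract, the great arteries, the endocardial cushions that become valves, and the epicardium. Several of them are ligands of integrins.

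The gene named by the genotype was checked first. Itgb1, the β1 chain, gave log2 signals of 11.76, 11.80 and 11.78 in wild-type hearts 1 to 3 and 11.53, 11.42 and 11.65 in knockout hearts 1 to 3. All 3 knockout hearts were below all wild-type hearts, at 84.0% of their geometric mean signal, a difference of -0.25 ± 0.09 (log2, SE; limma adjusted p = 0.797). An exact two-sided permutation test gave p = 0.1, which is the lowest value possible with 6 samples. Where the array's probes lie relative to the deleted part of the gene is not given, so this signal checks the labels only in part. The array medians lay between 6.65 and 6.71, and all 12 cardiomyocyte markers had a mean above the median cluster, as the labelled tissue would have them. Knockout replicate 1 stood apart in its erythroid markers, whose list mean was 9.97 in it against 8.33 to 8.81 in the other hearts.

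The knockout mean was the higher one for all 9 measured elastic fibre genes, with a median difference of 0.19 on the log2 scale, but none of the 9 lay wholly above or below the wild-type hearts, as 6.01% and 6.61% of all clusters did. Over all clusters 46.5% had a higher knockout mean, and the median difference was -0.01. Every measured marker of the erythroid list and of the neural crest and neuron list below also had a higher knockout mean. The difference was largest for Eln (0.98), Lox (0.60) and Fbln5 (0.46), and 0.12 or less for Fbln1, Fbn2, Mfap2 and Emilin1. None passed limma's test, with Benjamini-Hochberg adjusted p between 0.797 and 0.965, where 0 of 28767 clusters (0%) passed a threshold of 0.05. At an unadjusted p under 0.05, 3.06% of clusters were higher and 2.87% lower in the knockout, and none of the 9 genes was among them. For each of the 9 genes the range among the wild-type hearts alone exceeded the difference between the group means. The share of all clusters for which this holds was not counted, so it does not set these genes apart. The count of higher genes depended most on knockout replicate 3, and was 6 without wild-type replicate 2. Without knockout replicate 3 3 of the 9 genes, Fbln1, Fbln2 and Lox, had a higher knockout mean, against 49.4% of all clusters, and the median difference was -0.041. Without both hearts numbered 3, 8 of the 9 had a higher knockout mean and the median difference was 0.099.

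**Figure D1:**
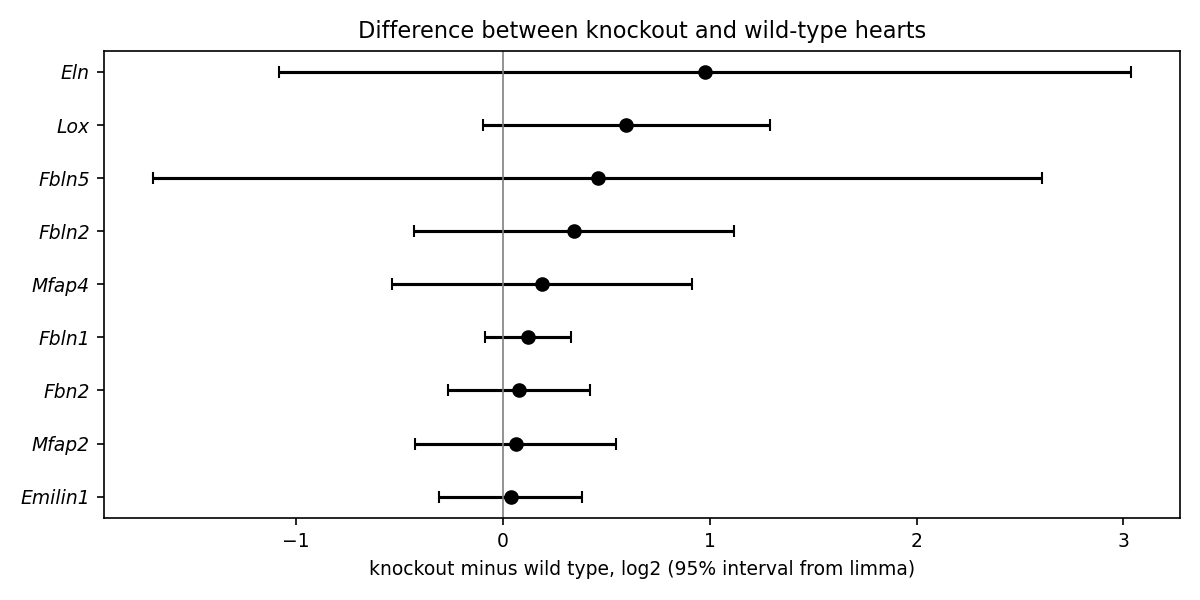
Knockout minus wild-type difference (x axis, log2) of each measured gene (y axis), with points for the difference of the means of 3 hearts each and bars for the 95% interval from limma's moderated standard error. All 9 points lie to the right of 0 and all 9 intervals include it, the widest being those of Eln and Fbln5.

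Most of these genes had their highest signal of each group in replicate 3. Within the wild-type group, replicate 3 was the highest heart for all 9 genes, and within the knockout group replicate 3 was the highest for 8, the exception being Fbln1. The same order, with replicate 3 highest in both groups, held for 9.27% of all clusters. The mean log2 signal of the 9 genes was 8.95, 8.74 and 9.64 in wild-type replicates 1 to 3, and 8.98, 9.10 and 10.20 in knockout replicates 1 to 3. Wild-type replicate 3 thus lay above knockout replicates 1 and 2. Between the hearts numbered 3, the knockout heart was the higher for 6 of the 9 genes. The labels state no tie between hearts that share a number, and over all clusters their deviations from the group means did not go together.

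**Figure D2:**
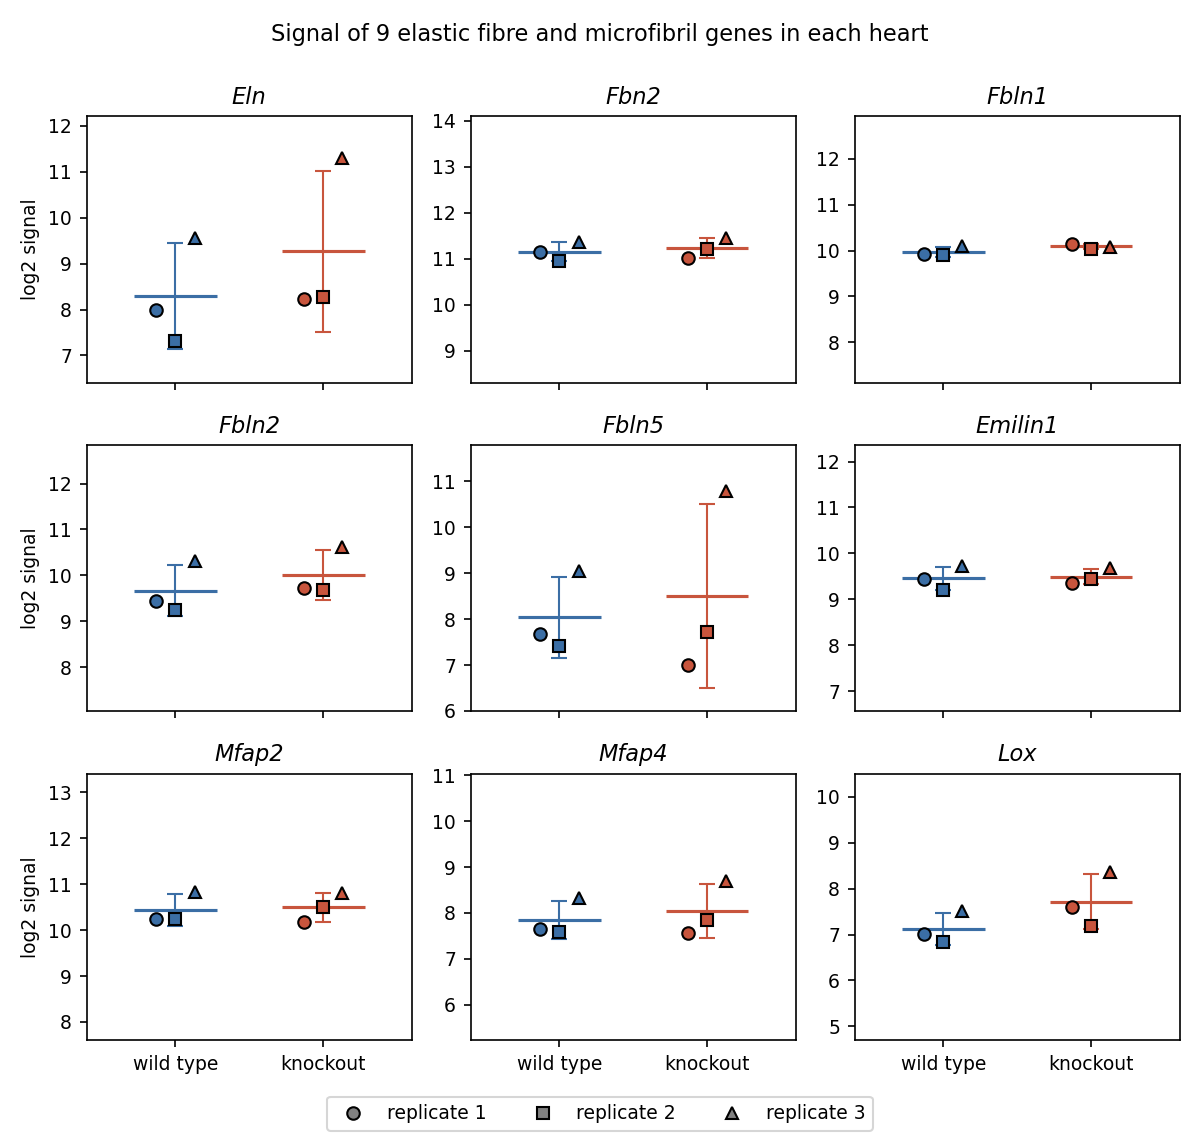
Log2 signal (y axis) of each measured gene in each heart, with a marker shape for each replicate number, horizontal lines for group means and bars for ± SD (n = 3). Every panel spans the same number of log2 units, and the triangles of replicate 3 stand highest in both groups in 8 of the 9 panels, far above the others for Eln and Fbln5.

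Eln, which encodes the elastic core protein, had log2 signals of 7.99, 7.32 and 9.56 in wild-type hearts 1 to 3 and 8.22, 8.28 and 11.30 in knockout hearts 1 to 3. Knockout replicate 3 was 3.05 above the mean of the other knockout hearts, and wild-type replicate 3 was 1.91 above that of the other wild-type hearts, so the groups overlapped. The group means were 8.29 ± 1.15 (SD, n = 3) and 9.27 ± 1.76 (SD, n = 3), a 1.97-fold difference in geometric mean signal. Its 95% interval of -1.08 to 3.04 on the log2 scale (limma) includes both a fall and a large increase. The adjusted p was 0.847 (limma), and the exact two-sided permutation p was 0.5. Without knockout replicate 3 the difference of Eln was -0.041. Only 5 of the 28767 clusters varied more than Eln within the groups, by the residual SD of 1.49.

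Lox, the enzyme that prepares elastin and collagen for cross-linking, came nearest to separating the genotypes. Its log2 signals were 7.02, 6.84 and 7.50 in wild-type hearts 1 to 3 and 7.59, 7.19 and 8.36 in knockout hearts 1 to 3. Knockout replicate 2, below wild-type replicate 3, was the only knockout heart within the wild-type range. The difference was 0.60 ± 0.30 (log2, SE), or 1.51-fold, with an unadjusted p of 0.0829 and an adjusted p of 0.797 (limma). Its 95% interval ran from -0.10 to 1.29. The difference of Lox stayed positive with each heart left out in turn, from 0.27 without knockout replicate 3 to 0.86 without knockout replicate 2. Those of Fbln1 and Fbln2 stayed positive as well. Without knockout replicate 2 the groups no longer overlapped for Lox, which follows from leaving out the only overlapping knockout heart and carries no weight. Without that heart 10.4% of all clusters lay wholly above, a share for which the heart was not chosen by a cluster's own values. Wild-type replicate 2 was the lowest of the 6 hearts for Lox, as it was for 6 of the 9 genes.

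Among the fibulins, Fbln5 and Fbln2 differed strongly between hearts and Fbln1 did not. Fbln5, which binds elastin and integrins and is needed for elastic fibres to assemble, was 7.67, 7.41 and 9.05 in wild-type hearts 1 to 3 and 7.00, 7.72 and 10.78 in knockout hearts 1 to 3. It was both highest and lowest in knockout hearts, and only 3 clusters on the array varied more within the groups. The difference of 0.46 ± 0.92 (log2, SE; limma adjusted p = 0.930) became -0.68 without knockout replicate 3 and 1.21 without knockout replicate 1. Fbln2, a fibulin abundant in cushion mesenchyme, was 9.44, 9.25 and 10.30 in wild-type hearts 1 to 3 and 9.72, 9.69 and 10.63 in knockout hearts 1 to 3. Both hearts numbered 3 again lay above the other 4, and the difference was 0.34 ± 0.33 (limma adjusted p = 0.858), or 0.03 without knockout replicate 3.

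Fbln1, a fibulin found in basement membranes and elastic fibres, was even across hearts. It gave 9.93, 9.90 and 10.09 in wild-type hearts 1 to 3 and 10.15, 10.04 and 10.09 in knockout hearts 1 to 3. Only knockout replicate 2 and replicate 3 fell below the highest wild-type heart, and the range over all 6 hearts was 0.25. The difference was 0.12 ± 0.09 (log2, SE), with a 95% interval of -0.09 to 0.33 (limma adjusted p = 0.819). Its residual SD of 0.085 was higher than that of 19.7% of clusters.

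RefSeq promoter windows, from 250 bases before to 50 after a gene's start, were held for 5 of the 9 genes (Mfap2, Emilin1, Fbln1, Fbln2 and Fbln5; 8 windows in all). The most upstream window of each fibulin is shown because the 3 genes are of 1 family and behaved differently across hearts. Sequences are in GRCm38.p6 and run 5′ to 3′ on the gene's strand. The windows are chr15:85205699-85205998 on the plus strand for Fbln1, chr6:91212514-91212813 on the plus strand for Fbln2 and chr12:101819070-101819369 on the minus strand for Fbln5. Capitals mark a GC box (GGGCGG) or a SMAD-type site (CAGACA) on either strand.
Fbln1: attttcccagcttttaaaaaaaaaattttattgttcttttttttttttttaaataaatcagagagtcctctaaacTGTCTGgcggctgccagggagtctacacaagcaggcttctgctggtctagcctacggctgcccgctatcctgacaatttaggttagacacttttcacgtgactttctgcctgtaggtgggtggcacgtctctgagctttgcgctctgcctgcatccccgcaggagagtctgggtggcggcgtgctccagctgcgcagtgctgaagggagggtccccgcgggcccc
Fbln2: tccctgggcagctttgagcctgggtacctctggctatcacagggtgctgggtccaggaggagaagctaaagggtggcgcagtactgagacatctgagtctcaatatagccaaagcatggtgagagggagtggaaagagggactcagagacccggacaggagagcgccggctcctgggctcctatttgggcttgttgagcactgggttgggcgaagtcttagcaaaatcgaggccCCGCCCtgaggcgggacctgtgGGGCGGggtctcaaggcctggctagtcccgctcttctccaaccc
Fbln5: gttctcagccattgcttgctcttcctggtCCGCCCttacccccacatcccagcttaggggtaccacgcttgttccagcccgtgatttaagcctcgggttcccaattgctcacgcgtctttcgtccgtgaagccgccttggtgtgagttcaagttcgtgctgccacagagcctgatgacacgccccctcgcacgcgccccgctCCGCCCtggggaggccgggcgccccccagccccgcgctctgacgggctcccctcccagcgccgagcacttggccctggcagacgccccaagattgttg
The Fbln2 window held 1 GC box on each strand and the Fbln5 window 2, both on the other strand, with no SMAD-type site in either. The Fbln1 window held 1 SMAD-type site and no GC box. Other windows of these genes differed from the ones shown. The other Fbln1 window held 2 GC boxes and 1 SMAD-type site, and the other Fbln5 window held 1 SMAD-type site and no GC box. A TATA box (TATAAA, both strands) was in none of the 8 windows and in 13.6% of all 32851 windows. GC boxes were in 4 of the 8 windows and 35.7% of all, and CAGACA in 5 of the 8 and 21.0% of all. The motifs do not overlap each other in the windows shown, and these matches are letters in a window, with no binding measured.

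Of the genes of microfibrils, Fbn2, Mfap2 and Emilin1 differed less between hearts than Eln and Fbln5. Fbn2, a fibrillin of embryonic microfibrils, was 11.15, 10.95 and 11.36 in wild-type hearts 1 to 3 and 11.01, 11.22 and 11.46 in knockout hearts 1 to 3. The hearts of the groups interleaved, and the difference of 0.08 ± 0.15 (log2, SE; limma adjusted p = 0.926) had a 95% interval of -0.27 to 0.42. Mfap2, which encodes a small glycoprotein on fibrillin, was 10.23, 10.25 and 10.83 in wild-type hearts 1 to 3 and 10.18, 10.50 and 10.82 in knockout hearts 1 to 3. The hearts numbered 3 differed by -0.01, knockout minus wild type, and the group difference was 0.06 ± 0.21 (limma adjusted p = 0.958). Emilin1, an elastin-associated glycoprotein that also binds integrins, was 9.45, 9.20 and 9.72 in wild-type hearts 1 to 3 and 9.35, 9.45 and 9.68 in knockout hearts 1 to 3. Its difference of 0.04 ± 0.15 was the smallest of the 9, with a 95% interval of -0.31 to 0.38 (limma adjusted p = 0.965).

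Mfap4, which encodes a fibrinogen-domain glycoprotein of microfibrils, was 7.64, 7.58 and 8.33 in wild-type hearts 1 to 3 and 7.56, 7.85 and 8.70 in knockout hearts 1 to 3. Replicate 3 was 0.72 above the other wild-type hearts and 0.99 above the other knockout hearts. The difference of 0.19 ± 0.31 (log2, SE; limma adjusted p = 0.917) became -0.14 without knockout replicate 3. Over the 9 genes, 8 had a residual SD above the median cluster (0.14) and 5, Eln, Fbln5, Fbln2, Mfap4 and Lox, one above the 95th percentile.

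**Figure D3:**
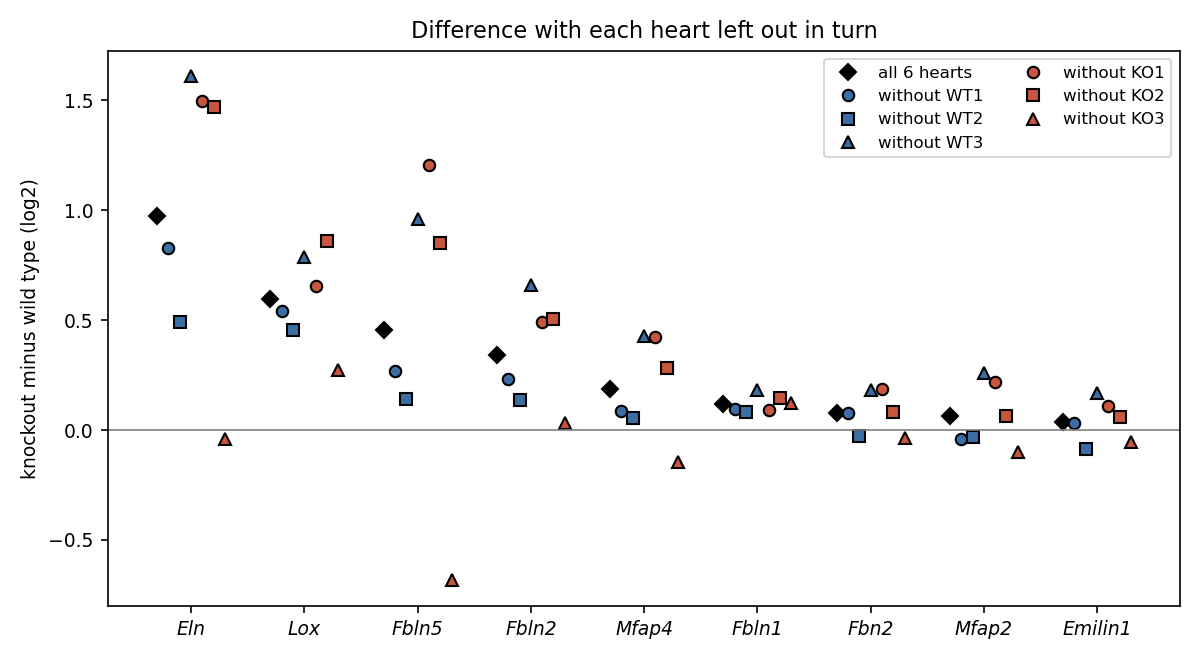
Knockout minus wild-type difference (y axis, log2) of each measured gene (x axis) from all 6 hearts (black diamonds) and with each heart left out in turn (blue for a wild-type heart left out, red for a knockout heart, marker shape for its replicate number). Without knockout replicate 3 (red triangles), 6 genes lie below 0, Fbln5 the lowest at -0.68, while Fbln1, Fbln2 and Lox stay above 0 throughout.

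Leaving out both hearts numbered 3 gave a different picture from leaving out the knockout heart alone. In the remaining 2 against 2 hearts, an alternative chosen after seeing the data, 8 of the 9 genes had a higher knockout mean, against 51% of all clusters, and Fbln5 was lower (-0.18). Eln, Fbln1, Fbln2 and Lox then lay wholly above the wild-type hearts, as did 23.2% of all clusters, and the same 4 did so without wild-type replicate 3 alone, as did 12% of all clusters. Their differences were 0.59, 0.18, 0.35 and 0.46 on the log2 scale, with limma adjusted p from 0.535 to 0.560.

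For each of the 9 genes the nearest other gene was found from the values over the 6 hearts. Likeness was measured as the root mean square distance between values after subtracting each gene's mean. The values were not scaled, so the distance reflects the size of the variation as well as its shape. Fbn2 and Emilin1 were the nearest pair (0.05), Fbln2 and Mfap4 were each other's nearest (0.15), and Eln and Fbln5 were each other's nearest (0.39). Mfap2 was nearest to Fbn2 (0.12), Lox to Fbln2 (0.21) and Fbln1 to Emilin1 (0.15). The distance is small for any pair of genes that vary little. Fbn2 and Emilin1 varied less than Eln and Fbln5, but their residual SDs lay above those of 80.3% and 80.6% of clusters. Outside the lists, among 10716 genes at or above the median level, the 5 nearest to the mean profile of the 9 were Foxp2 (0.12), a forkhead transcription factor, Nt5e (0.12), an ecto-nucleotidase, Gpc6 (0.14), a glypican, Frzb (0.15), a secreted Wnt antagonist, and Crispld1 (0.15). Foxp2, the nearest, was 6.75, 6.59 and 7.62 in wild-type hearts 1 to 3 and 6.95, 6.93 and 7.83 in knockout hearts 1 to 3. Because it was picked by likeness to the mean profile, its peak in replicate 3 of both groups follows from the choice. Eln and Fbln5, which varied most, weighed most in that profile.

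Other genes of elastic fibres and microfibrils had smaller steps in replicate 3 as a group. Of 34 listed genes 30 were measured, 18 with a higher and 12 with a lower knockout mean, against 46.5% of all clusters with a higher one. The median difference was 0.06, and 0 passed limma's test over all clusters. At an unadjusted p under 0.05, 1 was higher and 2 lower, where 3.06% and 2.87% of all clusters were. Replicate 3 was the highest of both groups for 9 of the 30, against 8 of the 9 genes above and 9.27% of all clusters, and the list mean in it was 0.18 above the other wild-type hearts and 0.0047 above the other knockout hearts. Knockout hearts lay wholly above wild-type hearts for 2 genes (Vwa1 and Fn1) and wholly below for 2 (Emilin2 and Tgm2), the shares of all clusters being 6.01% and 6.61%.

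The lowest p in that list belonged to Vwa1, a basement membrane and pericellular matrix protein. It was 6.42, 6.10 and 6.23 in wild-type hearts 1 to 3 and 6.94, 6.64 and 6.55 in knockout hearts 1 to 3, a difference of 0.46 ± 0.13 (log2, SE; limma adjusted p = 0.797). The mean level of Vwa1, 6.48, lay under the median over all clusters (6.67). Emilin2, an emilin 1 relative, was 10.05, 9.95 and 9.95 in wild-type hearts 1 to 3 and 9.88, 9.64 and 9.35 in knockout hearts 1 to 3. All knockout hearts were lower, by -0.36 ± 0.14 in the mean, and knockout replicate 3 was the lowest, unlike for Emilin1. Transglutaminase 2, Tgm2, a protein cross-linking enzyme, also lay wholly lower in the knockout, with a difference of -0.24 ± 0.09. The proteoglycan gene Bgn differed by 0.42 ± 0.21, and the metalloproteinase genes Adamts10 and Adamts17, relatives of which act on microfibrils, by 0.23 ± 0.11 and 0.28 ± 0.14, with overlap between the groups for these 3. All of these have a limma adjusted p of 0.797.

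Markers of the cushion mesenchyme followed the same hearts as the elastic fibre genes. The mean of 20 such markers was 8.25, 7.97 and 8.72 in wild-type hearts 1 to 3 and 8.24, 8.39 and 8.83 in knockout hearts 1 to 3, and 16 of the 20 were highest in replicate 3 of both groups. Of the 20, 16 had a higher and 4 a lower knockout mean, against 46.5% of all clusters with a higher one. The median difference was 0.13, with 0 past limma's test (0 also at an unadjusted p under 0.05). The most abundant markers, the proteoglycan gene Vcan and the transcription factor gene Tbx20, were higher in replicate 3 than the other hearts of the group by 0.49 and 0.32 in the wild type and by 0.23 and 0.36 in the knockout. The mesenchymal transcription factor gene Sox9, chosen after its values were seen, was 7.82, 7.48 and 8.67 in wild-type hearts 1 to 3 and 7.79, 7.91 and 9.10 in knockout hearts 1 to 3. The part of these cells in the values of the elastic fibre genes was not tested, and in a whole heart more cells of a type and more RNA per cell cannot be told apart. The list holds matrix genes of its own, such as Vcan and Postn, and 2 of the 20 markers lay under the median level.

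The mean of 15 smooth muscle and pericyte markers was 8.78, 8.61 and 8.80 in wild-type hearts 1 to 3 and 8.87, 8.73 and 9.01 in knockout hearts 1 to 3. It was highest in replicate 3 of each group, by smaller steps than the elastic fibre genes, and replicate 3 was the highest of both groups for 4 of the 15 genes. The most abundant of these, Acta2, smooth muscle actin, was 12.89, 12.74 and 12.75 in wild-type hearts 1 to 3 and 12.62, 12.70 and 12.90 in knockout hearts 1 to 3. Des, desmin, the next most abundant, was lower in replicate 3 of both groups, by steps of -0.16 and -0.03. The 4 genes highest in replicate 3 of both groups were Rgs5, Pdgfrb, Myh11 and Lmod1. Their steps in the wild type and the knockout were 0.67 and 1.98, 0.45 and 0.46, 0.20 and 0.31, and 0.45 and 0.13. The part of smooth muscle in the elastic fibre values was not tested. The list had 10 genes with a higher and 5 with a lower knockout mean, against 46.5% of all clusters with a higher one. The median difference was 0.08, with 0 genes past limma's test. At an unadjusted p under 0.05, 1 was higher and 1 lower, where 3.06% and 2.87% of all clusters were. Of the 15, 4 lay under the median level, Rgs5, Myh11 and Lmod1 among them.

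The steps of replicate 3 were smaller in the lists of other cell types than in the 9 elastic fibre genes. In wild-type and knockout replicate 3, the list mean differed from that of the other hearts of the group by -0.01 and 0.11 for 13 epicardial markers, by -0.07 and 0.00 for 12 endothelial and endocardial markers and by -0.04 and 0.03 for 12 cardiomyocyte markers. The same steps were -0.46 and -0.62 for 9 measured erythroid markers and -0.16 and 0.01 for 12 macrophage markers. They were 0.14 and 0.11 for 8 neural crest and neuron markers, of which 7 lay under the median level. They were 0.32 and 0.16 for 10 markers of skin, cartilage and skeletal muscle, of which 9 lay under the median level. For the 9 elastic fibre genes the steps were 0.79 and 1.16, and for the cushion mesenchyme markers 0.60 and 0.51. Eln (1.91 and 3.05) and Fbln5 (1.51 and 3.43) weighed most in the mean of the 9. The steps of the other elastic fibre genes among the 9 ran from 0.18 to 0.96 in the wild type and from -0.01 to 0.99 in the knockout. The median knockout minus wild-type difference was 0.10 in the epicardial, -0.10 in the endothelial, -0.04 in the cardiomyocyte, 0.40 in the erythroid, 0.16 in the macrophage, 0.06 in the neural crest and 0.04 in the last list, with 0 members past limma's test (at an unadjusted p under 0.05, 1 epicardial and 1 macrophage marker higher and 1 macrophage marker lower). At that p, 3.06% of all clusters were higher and 2.87% lower. The knockout mean was higher for 9 of the 9 erythroid, 8 of the 8 neural crest and 11 of the 12 macrophage markers. Among the rest it was higher for 9 of the 13 epicardial, 4 of the 12 endothelial and 4 of the 12 cardiomyocyte markers. In the last list 6 of the 10 were higher, and of all clusters 46.5% were.

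The most abundant markers of these lists were compared between the genotypes, as values that did not pass the test. The epicardial keratin gene Krt19 lay wholly higher in the knockout, by 0.58 ± 0.28 (log2, SE), as did 6.01% of all clusters. Krt19 was 9.69, 9.56 and 9.46 in wild-type hearts 1 to 3 and 10.87, 9.83 and 9.75 in knockout hearts 1 to 3. Its difference thus came mostly from knockout replicate 1. The proteoglycan gene Dcn, listed for epicardium and cushion mesenchyme, differed by 0.17 ± 0.16. The endocardial receptor gene Npr3 differed by -0.18 ± 0.10 and the endothelial receptor gene Tek by -0.22 ± 0.12. The cardiomyocyte genes Actc1 and Myh7 differed by -0.02 and -0.03, and the embryonic globin genes Hbb-y and Hba-x by 0.13 and 0.40. The macrophage genes Lyz2 and Csf1r differed by -0.40 and 0.20, Lyz2 being the 1 of 12 macrophage markers with a lower knockout mean. Hba-x was 13.26 in knockout replicate 1, against 11.68 and 11.91 in knockout replicates 2 and 3. The differences were 0.02 for Erbb3 and 0.06 for Sox10, both of neural crest, 0.16 for the cartilage collagen gene Col9a1 and -0.01 for the skin keratin gene Krt14. Col9a1 was 1.06 and 0.75 higher in replicate 3 than in the other hearts of the wild-type and the knockout group.

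**Figure D4:**
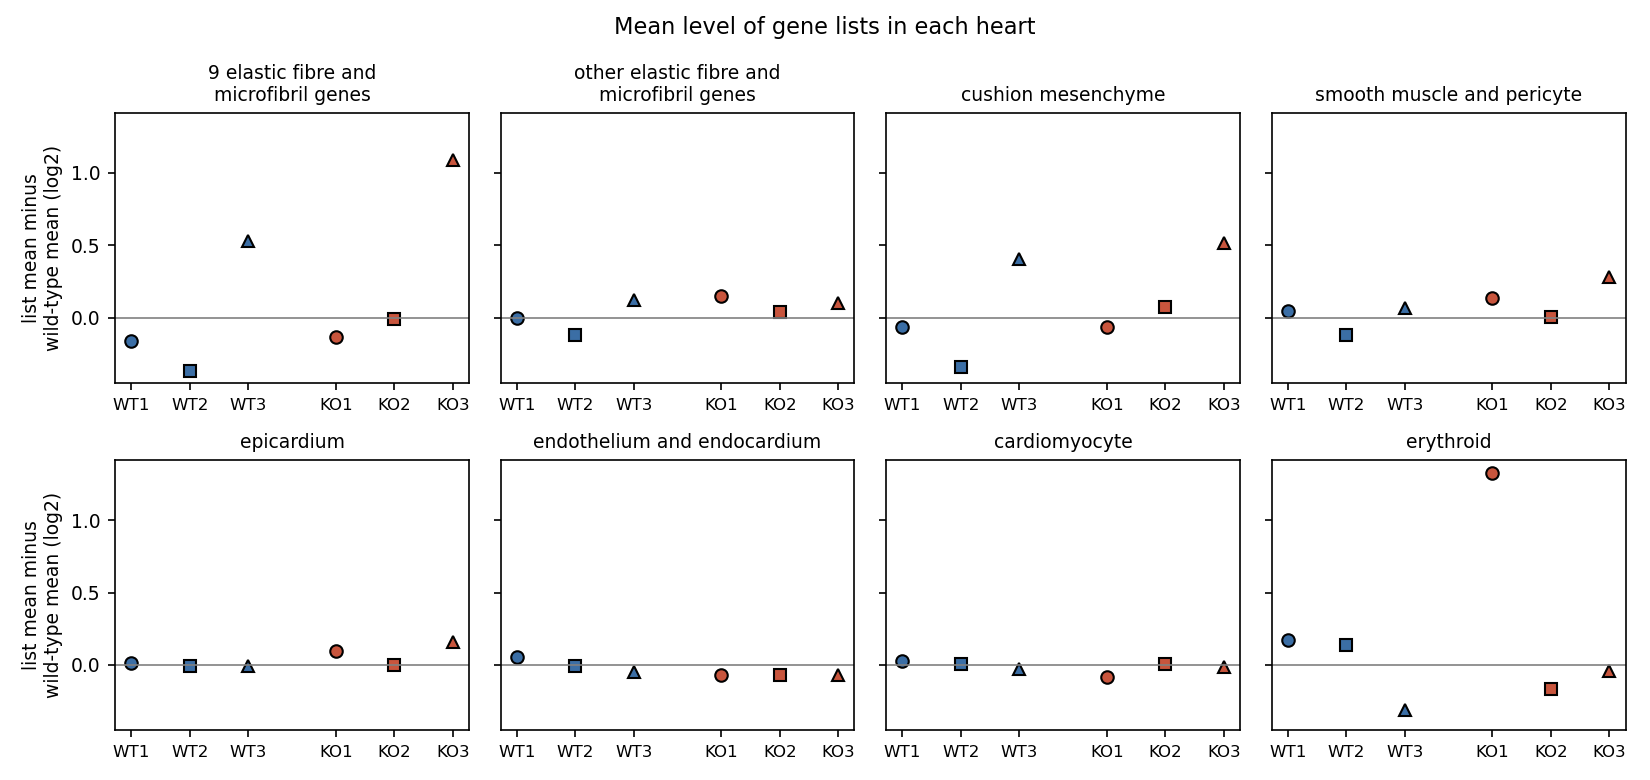
Mean log2 level of 8 gene lists in each heart, minus the mean of the wild-type hearts (y axis, log2), with blue for wild-type and red for knockout hearts and a marker shape for each replicate number. The 9 elastic fibre genes and the cushion mesenchyme markers are highest in replicate 3 of both groups, and the erythroid markers in knockout replicate 1.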

How the data were processed

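The deposited values are log2 signals that the authors obtained with RMA, per the submitters' processing notes. RMA is a method that removes background, brings the arrays to 1 distribution and combines a cluster's probes, and it shrinks differences of dim clusters. Total RNA came from a Trizol extraction and carried a biotin label, per the labels' protocols. For RMA's version, the probe annotation, the build and filters the sources used here give nothing. All 9 measured genes lay above the median level.

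Of 28767 clusters, 21776 had 1 gene symbol in a platform annotation table, 1618 several and 5373 none. Symbols were updated by Entrez identifier through a RefSeq table (GRCm38.p6), which matched 21686. For the 993 genes with several clusters the one with the highest mean over the 6 arrays was used. The genotypes were compared with limma 3.58.1 in R 4.3.3 (lmFit, eBayes), two-sided, 3 hearts against 3, with no filter, no pseudocount and no covariate, adjusted by Benjamini-Hochberg over all clusters at a threshold of 0.05. The fit was tested on simulated data. Precision is limited by the number of arrays. The p-values measure only the spread between these samples.

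The genes and lists were chosen with earlier results of these data known, so lists are described by counts and medians, with no test of their own. Genes were named by a rule: every listed elastic fibre gene, Itgb1, the 6 lowest p of the other elastic fibre genes, the 3 lowest p each of the protease and RGD-binding integrin lists, the 2 most abundant markers of a cell type list, and the 5 nearest profiles. Sox9, Postn, Fn1, Rgs5, Pdgfrb, Myh11 and Lmod1 were named after their values were seen.

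The alternatives changed the clusters tested (without dim ones, 1 cluster per gene, a gene's mean cluster), the scaling (quantile again, cyclic loess, median centring), the variance model (trended and robust, weighted arrays, a replicate block) and the hearts included.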

Additional observations from a re-analysis of the deposited data

How the results depend on the processing

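With each heart left out in turn, the median difference of the 9 genes ran from -0.041 (without knockout replicate 3) to 0.43 (without wild-type replicate 3), against 0.19 from all 6, and the number with a higher knockout mean from 3 to 9. The number of genes wholly separated ran from 0 to 4, against 0, with 4 without wild-type replicate 3 (Eln, Fbln1, Fbln2 and Lox) and 4 without both hearts numbered 3. Clusters past limma's threshold numbered 0 to 1, against 0, the 1 without knockout replicate 1 and not among the 9 genes. Signs turned without knockout replicate 3 for Eln (-0.041), Fbn2 (-0.036), Fbln5 (-0.68), Emilin1 (-0.056), Mfap2 (-0.098) and Mfap4 (-0.14). They turned without wild-type replicate 2 for Fbn2 (-0.026), Emilin1 (-0.088) and Mfap2 (-0.032), without wild-type replicate 1 for Mfap2 (-0.040), and without both hearts numbered 3 for Fbln5 (-0.18). With a heart left out, the highest difference was 1.61 for Eln, 0.26 for Mfap2 and 0.17 for Emilin1, all without wild-type replicate 3, 0.43 for Mfap4 without the same heart, and 1.21 for Fbln5 and 0.19 for Fbn2 without knockout replicate 1. The cause was not tested, beyond the smaller number of hearts. The other 133 of 144 values of the 9 genes kept their sign and their side of the threshold, and Fbln1, Fbln2 and Lox did so in every alternative. No scaling, filter or variance setting changed a sign among the 9.

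Hearts that share a replicate number did not deviate together over all clusters (r = -0.04, -0.03 and -0.06 for numbers 1 to 3), so the number was not taken as a pairing. With a replicate block the median difference of the 9 genes was 0.19, 9 had a higher knockout mean, the smallest adjusted p among them was 0.648 and 1508 clusters had an unadjusted p under 0.05, against 1705 without the block. Itgb1 lay between -0.33 and -0.20 over all alternatives and did not pass. With 3 arrays per group, differences within the wide intervals of Eln and Fbln5 were not detectable.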

Other observations

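Proteases that can degrade elastin, with their inhibitors, were measured for 10 of 11 listed genes. The mean was higher in the knockout for 9 and lower for 1, against 46.5% of all clusters with a higher one. The median difference was 0.14 on the log2 scale, and 0 passed limma's test over all clusters. At an unadjusted p under 0.05, 1 was higher and 1 lower, where 3.06% and 2.87% of all clusters were. Knockout hearts lay wholly above for 1 gene and wholly below for 1, as for 6.01% and 6.61% of all clusters. Ctss, the lysosomal elastase cathepsin S, was 7.41, 7.73 and 7.58 in wild-type hearts 1 to 3 and 8.13, 8.34 and 7.92 in knockout hearts 1 to 3, all knockout hearts above all wild-type hearts, with a difference of 0.56 ± 0.13 (log2, SE). Ctsk, cathepsin K, a collagen- and elastin-degrading protease, was 7.51, 7.36 and 7.42 in wild-type hearts 1 to 3 and 7.15, 7.17 and 7.31 in knockout hearts 1 to 3, all knockout hearts below, with a difference of -0.22 ± 0.09. Mmp12, macrophage elastase, differed by 0.27 ± 0.14 with overlap. Its mean level was low, at 5.17 against a median of 6.67 over all clusters, and 3 of the 10 genes lay under that median. The limma adjusted p was 0.797 for all 3. Unlike for Eln, replicate 3 was not the highest heart of either group for Ctss. Cathepsin S is also a gene of macrophages, whose 12 markers had list means of 6.77 to 6.96 in wild-type and 6.89 to 7.10 in knockout hearts, and their part was not tested.

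Integrin chains that bind the RGD motif, which fibrillins and Fbln5 carry, numbered 8. Of these 5 had a higher and 3 a lower knockout mean, against 46.5% of all clusters with a higher one. The median difference was 0.12. Itgb1 was the 1 chain with an unadjusted p under 0.05, where 3.06% of all clusters were higher and 2.87% lower. Knockout hearts lay wholly above for 1 chain and wholly below for 1, as for 6.01% and 6.61% of all clusters. Itgb5 was 10.45, 10.34 and 10.42 in wild-type hearts 1 to 3 and 10.59, 10.57 and 10.52 in knockout hearts 1 to 3, wholly above, with a difference of 0.15 ± 0.08 (log2, SE). Itgav, the αv chain that pairs with β5, differed by 0.26 ± 0.11 with overlap between the groups. Both have a limma adjusted p of 0.797. Fn1, an RGD ligand on which microfibrils assemble, was 12.49, 12.45 and 12.54 in wild-type hearts 1 to 3 and 12.72, 12.56 and 12.62 in knockout hearts 1 to 3, wholly above by 0.14 ± 0.08 in the mean (limma adjusted p = 0.797).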
